A study of Mus musculus with 2 samples.

Results

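Numbered LTR rows are entries for the long terminal repeats of old mammalian endogenous retroviruses, and MamGyp rows are entries for a mammalian branch of the Gypsy retrotransposons. They were set apart by name alone, as rows that begin with LTR and a digit, with MamGyp or with MamRTE. That gave 87 of the 952 repeat rows, of which 79 were numbered LTR rows and 8 were MamGyp rows, while the MamRTE prefix matched 0 rows. Reads came from 1 chromatin immunoprecipitation (ChIP) sample made with an antibody to H3.3S31ph, the histone variant H3.3 carrying a phosphate on serine 31, and from 1 input sample of sheared chromatin that was not immunoprecipitated. Both were from wild-type mouse embryonic stem (ES) cells of strain 129S1/SvImJ, grown with serum and leukemia inhibitory factor. The cells were held for 12 hours with 9 µM RO-3306, which inhibits the kinase CDK1 and stops cells before mitosis, and were collected in mitosis 11 hours after it was washed out. Neither sample had a replicate, so every interval below is a 95% exact interval of counting error, which says nothing about the spread between cultures.

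A retrovirus that enters the germ line is copied into the genome as a provirus, an internal stretch with the viral genes between 2 identical LTRs. The LTRs carry the promoter and the polyadenylation signal. Recombination between them often removes the internal stretch, so most old insertions persist as solitary LTRs. H3.3 is the histone H3 variant deposited outside of DNA replication, and in ES cells it is placed at telomeres and at some endogenous retroviruses by the ATRX and DAXX complex. Phosphorylation of serine 31, a residue that the canonical H3 histones lack, is a mark of mitotic chromatin. The numbered LTRs belong mainly to the ERVL class, distant relatives of mouse MERVL, and to the ERV1 class, the relatives of gammaretroviruses. LTR81 and MamGyp stand for Gypsy elements, LTR retrotransposons that are related to retroviruses. MamRTE names would have stood for elements with no LTR.

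The 87 rows together held 51267 ChIP reads and 48049 input reads over 2 sequencing lanes of the same libraries, which is 0.419% of the ChIP reads in the tables and 0.543% of the input reads. The tables as a whole held 12235477 ChIP and 8856751 input reads. A ratio divides the share that a row has of the ChIP reads by the share it has of the input reads. A row was analysed singly where it had at least 100 input reads, which was the case for 69 of the 87 rows and for 704 of all 952. These 69 rows held 99.1% of the input reads of the 87, with a median of 438 input reads a row, against 1420.5 for all 704 repeats. Their precision is therefore lower than that of the average repeat.

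As a set, these old LTRs carried less H3.3S31ph signal than input, at or slightly under the level of the bulk of repeats. The summed reads of all 87 rows gave a ratio of 0.772 (0.763 to 0.782), and the median of the 69 analysed rows was 0.752, against 0.805 for the median of all 704 repeats (hereafter the median repeat). The median of the 69 rows stayed below 1 on each scale between the libraries that was tried without setting the median repeat itself to 1. Of the 69 rows, 65 had an interval below 1, 4 had one that included 1 and 0 lay above 1. Among all 704 repeats an interval below 1 was found for 79.5% and one above 1 for 7.81%. These counts depend on the scale between the libraries. An interval below 1 was found for 44 of the 69 rows on the deposited scale, for 15 with the median repeat set to 1, for 67 without the 5 repeats with most input reads and for 33 without the 5 with most ChIP reads, an alternative added after the values were seen. In the same order, an interval below 1 was found for 392, 135, 597 and 338 of all 704 repeats. An interval above 1 was found for 1, 1, 0 and 1 of the 69 rows, against 109, 192, 44 and 125 of all 704 repeats. Since the level against input moves with the scale between the libraries, values are also given below relative to the median repeat. They are log2 ratios that are 0 at the median repeat.

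Relative to the median repeat the set was shifted downward by little, and it had almost no upper tail. The median of the 69 rows lay at a log2 ratio of -0.098, with 50 rows lower and 19 higher than the median repeat. The interval of 15 rows lay wholly below the median repeat, which is 21.7% of the 69, against 19.2% of all repeats. Only 1 row had an interval wholly above it, which is 1.45% of the 69, against 27.3% of all repeats. By size, 2 rows lay more than 0.32 below the median repeat on the log2 scale, against 2.41% of all repeats, and 1 lay more than 0.32 above it, against 11.1%.

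**Figure D1:**
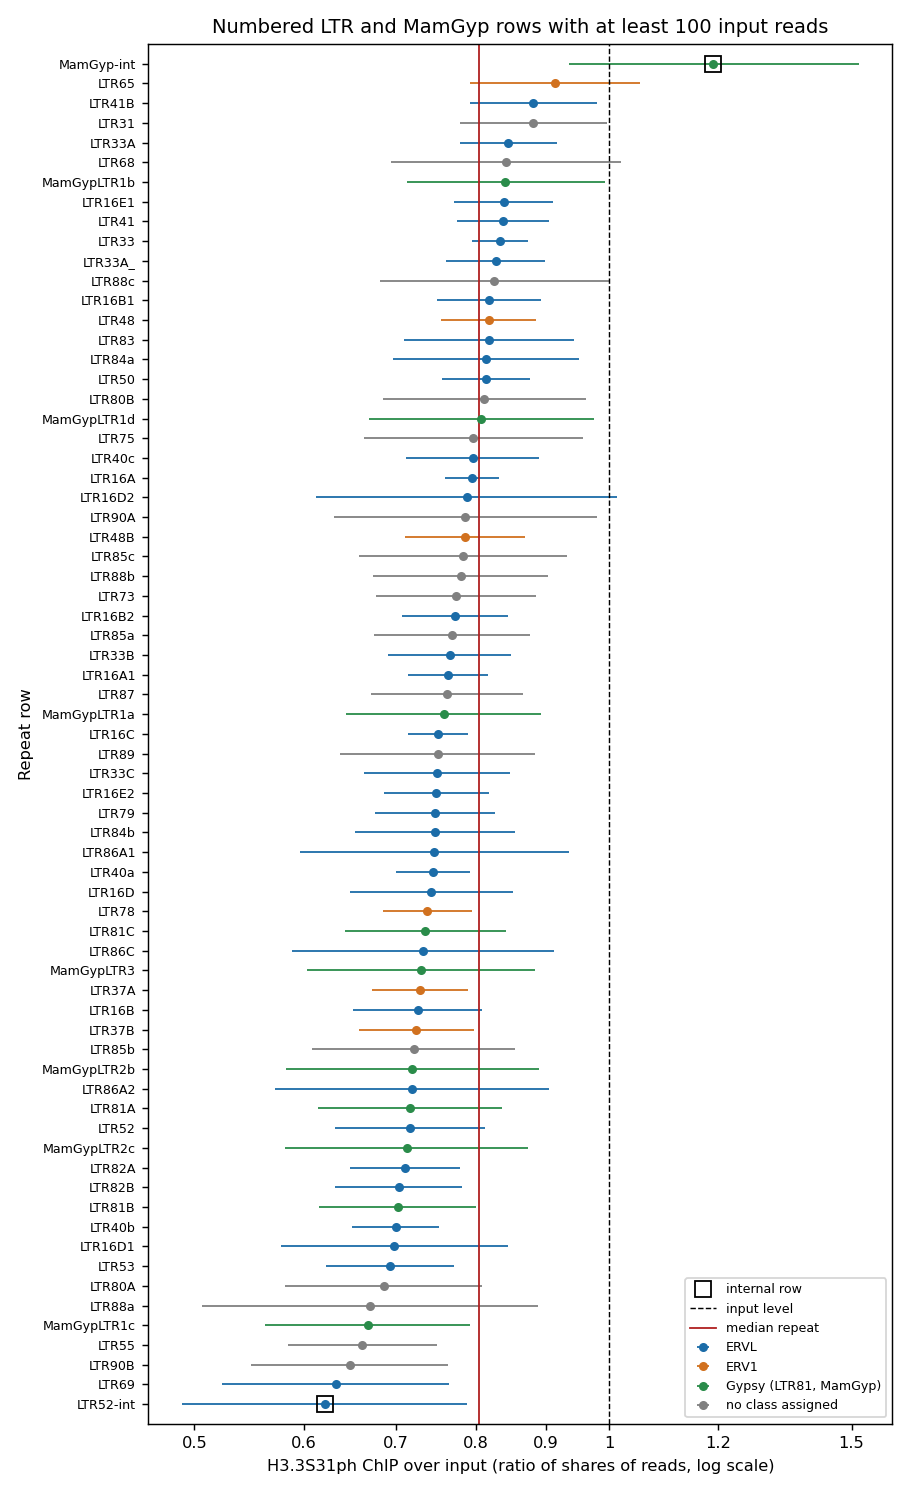
H3.3S31ph ChIP over input (log axis) of the 69 rows with at least 100 input reads, ordered by ratio, with 95% counting intervals and colours for the class of element. MamGyp-int stands alone at 1.19 at the top, while the other 68 rows run from 0.622 for LTR52-int to 0.913 for LTR65.

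Depth bears on such counts, because intervals narrow as reads increase. Among the 55 rows with 100 to under 1000 input reads, 10 had an interval below the median repeat, which is 18.2%, and 1 above it, which is 1.82%, against 11.1% and 14.8% of the 298 repeats of that depth. Among the 14 rows with 1000 or more input reads, 5 lay below, which is 35.7%, and 0 above, against 25.1% and 36.5% of 406 such repeats. The deeper rows had a median log2 ratio of -0.00080 relative to the median repeat and the shallower rows -0.10. With their reads summed, the 14 deeper rows lay at -0.034 (-0.059 to -0.0086). Across all 69 rows Spearman's rho between input reads and log2 ratio was 0.158, a description across rows that share the same libraries. Repeats of 100 to under 1000 input reads as a whole also lay slightly low, with a median of -0.031.

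**Figure D2:**
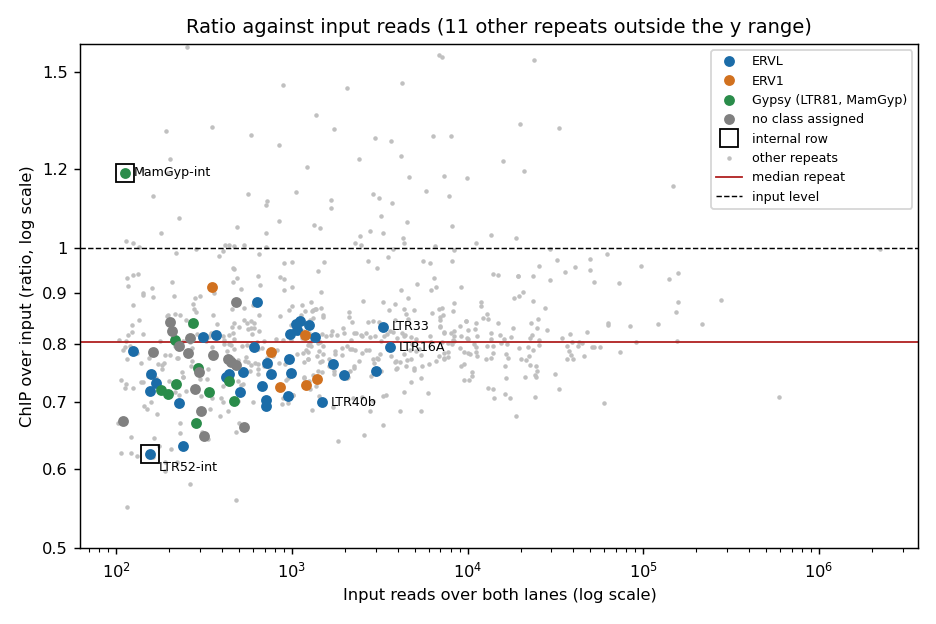
Ratio against input reads (both axes log) for the 69 rows in colour and for other repeats in grey, with the 2 internal rows boxed. Some grey points lie above the input level, whereas MamGyp-int is the only coloured point above 1.

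The single high row belonged to MamGyp, whose entries cover both parts of the element. The 7 MamGyp LTR rows, which flank the internal stretch in an intact element, lay low or near the median repeat. MamGypLTR1c, the lowest, had 263 ChIP and 285 input reads and a ratio of 0.668 (0.563 to 0.793). MamGypLTR1b, the highest, had 316 ChIP and 272 input reads and a ratio of 0.841 (0.713 to 0.993). The other 5 rows lay between them. MamGypLTR2c had a ratio of 0.713, MamGypLTR2b 0.720, MamGypLTR3 0.730, MamGypLTR1a 0.758 and MamGypLTR1d 0.808, each resting on 181 to 294 input reads.

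MamGyp-int, the entry for the internal, protein-coding stretch, was the high row. It had 93 and 91 ChIP reads in lanes 1 and 2, against 58 and 54 input reads. The ratio was 1.19 (0.935 to 1.52). Against the median repeat that is a log2 ratio of 0.56 (0.22 to 0.92), or 1.48-fold. None of the 7 LTR rows reached that level. Both lanes put MamGyp-int high, at 0.52 in lane 1 and 0.61 in lane 2. It was also among the shallowest analysed rows, with 112 input reads, and its interval against input included 1.

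Summed, the 7 MamGyp LTR rows had 1725 ChIP reads against 1666 input reads, for a ratio of 0.749 (0.700 to 0.802), while MamGyp-int had 184 ChIP reads against 112 input reads. The LTR rows thus had 0.630 times the ratio of the internal row, with an exact conditional interval of 0.489 to 0.810. This difference exceeded counting error in each lane, at 0.657 (0.458 to 0.935) in lane 1 and 0.604 (0.417 to 0.868) in lane 2. The lanes sequenced the same libraries again, so this is no replicate of the immunoprecipitation.

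The other internal row with at least 100 input reads went the opposite way. LTR52, the LTR of an ERVL-class element, had 257 and 247 ChIP reads in lanes 1 and 2, against 250 and 259 input reads, for a ratio of 0.717 (0.632 to 0.812). LTR52-int, its internal entry, had 73 and 61 ChIP reads against 76 and 80 input reads, for a ratio of 0.622 (0.490 to 0.788), the lowest of the 69 rows. The LTR row thus stood at 1.15 times the internal row, with an interval of 0.880 to 1.51 that included 1. LTR23-int, the remaining internal row, had 11 ChIP and 11 input reads, too few to place it.

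Taking the whole set, the 84 LTR rows had a summed ratio of 0.772 (0.762 to 0.782) and the 3 internal rows one of 0.854 (0.726 to 1.00). The LTR rows stood at 0.904 times the internal rows (0.768 to 1.06), a difference within counting error. That value depended on MamGyp: without the MamGyp rows, an alternative added after the values were seen, the LTR rows stood at 1.23 times the internal rows (0.978 to 1.55). No general difference between LTR and internal entries of these old elements was therefore detectable at this depth. The 60 internal rows of other elements, 52 of them with at least 100 input reads, had a median ratio of 0.789, with a range of 0.654 to 2.73. Of those 52, with a median of 6000 input reads a row, 18 had an interval above the median repeat (34.6%) and 14 below it (26.9%). The shares were 27.3% and 19.2% among all 704 repeats. They were 36.5% and 25.1% among the 406 repeats with 1000 or more input reads.

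**Figure D3:**
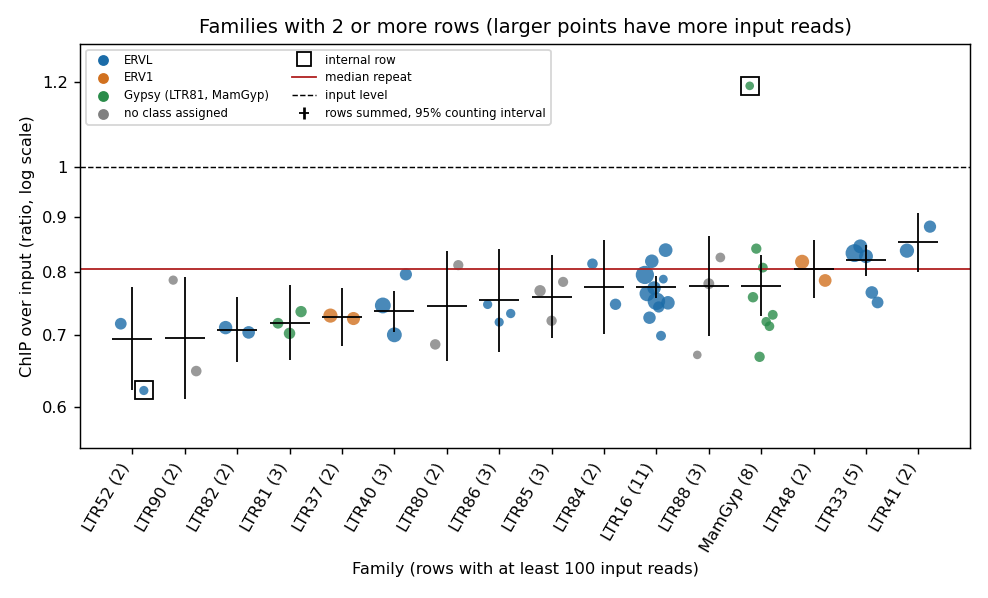
Ratio (log axis) of each row in the 16 families with 2 or more analysed rows, ordered by the ratio of the summed reads of the family (black bars, 95% counting interval). Most families sit under the median repeat and none has a summed interval above it, and MamGyp-int is the point farthest from the rows of its family.

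The 69 analysed rows fall into 30 families by their number. The summed interval of 11 families lay below the median repeat and that of 0 lay above it. For all repeats taken as single rows these shares were 19.2% and 27.3%. Summed intervals are narrower, and only 16 of the 30 families have 2 or more analysed rows, so the count partly repeats calls of single rows. LTR16, the largest ERVL-class family, has 11 rows and held 14753 ChIP and 13775 input reads. Its summed ratio was 0.775 (0.757 to 0.794), and its rows ran from 0.699 for LTR16D1 to 0.838 for LTR16E1. The 3 most abundant LTR16 rows had neighbouring ratios. LTR16A had 1947 and 2013 ChIP reads in lanes 1 and 2, against 1829 and 1776 input reads, for a ratio of 0.795 (0.760 to 0.832). LTR16C had 1631 and 1513 ChIP reads against 1502 and 1525 input reads, for a ratio of 0.752 (0.715 to 0.791), and it was the only LTR16 row with an interval below the median repeat. LTR16A1 lay between them at 0.764 (0.715 to 0.817). Rows of 1 family are related sequences, so a read can match more than 1 of them, and the assignment of such reads was not stated in the labels.

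LTR33 and LTR41, further ERVL-class families, lay at or slightly above the median repeat. LTR33 itself had 1920 and 1897 ChIP reads in lanes 1 and 2, against 1691 and 1626 input reads, for a ratio of 0.833 (0.795 to 0.873). LTR33A had 637 and 667 ChIP reads against 590 and 527 input reads, for a ratio of 0.845 (0.780 to 0.916), and LTR33C, the lowest of the 5 LTR33 rows, had 0.750 (0.664 to 0.847). The summed LTR33 ratio was 0.820 (0.794 to 0.848). LTR41 had a ratio of 0.837 (0.776 to 0.904) and LTR41B one of 0.881 (0.792 to 0.981), and the summed ratio of the family was 0.852 (0.801 to 0.907). Apart from LTR33C the values given here lay above the median repeat, and each of the intervals includes it. Of all 5 LTR33 rows, 3 lay higher than the median repeat and 2 lower. LTR50, a single ERVL-class row, had 1520 ChIP reads against 1352 input reads, for a ratio of 0.814 (0.756 to 0.876).

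LTR40, LTR82, LTR53 and LTR69 marked the low side of the ERVL class. LTR40b had 727 and 709 ChIP reads in lanes 1 and 2, against 808 and 677 input reads, for a ratio of 0.700 (0.651 to 0.753). LTR40a had 1025 and 1005 ChIP reads against 1045 and 927 input reads, for a ratio of 0.745 (0.700 to 0.793), whereas LTR40c, at 0.796 (0.712 to 0.890), included the median repeat. LTR69 had 106 and 103 ChIP reads against 121 and 118 input reads, for a ratio of 0.633 (0.523 to 0.765). It was 1 of the 2 rows more than 0.32 below the median repeat on the log2 scale, the other being LTR52-int, and LTR90B, at a log2 ratio of -0.31, lay just inside that limit. LTR82A, LTR82B and LTR53, named after their values were seen, had ratios of 0.711, 0.704 and 0.693, and each interval lay below the median repeat.

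In the ERV1 class, LTR37 and LTR78 lay low and LTR48 and LTR65 did not. LTR37A had 633 and 586 ChIP reads in lanes 1 and 2, against 590 and 620 input reads, for a ratio of 0.729 (0.673 to 0.790). LTR78 had 711 and 705 ChIP reads against 704 and 685 input reads, for a ratio of 0.738 (0.685 to 0.795). The LTR48 family had a summed ratio of 0.805 (0.757 to 0.857), equal to the median repeat to 3 digits. LTR65 had the highest ratio of the LTR rows with at least 100 input reads, 0.913 (0.792 to 1.05), with 241 and 203 ChIP reads in lanes 1 and 2, against 169 and 183 input reads. Relative to the median repeat it was at a log2 ratio of 0.35 in lane 1 and 0.0023 in lane 2.

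Among the Gypsy rows, the LTR81 family resembled the MamGyp LTRs, with a summed ratio of 0.718 (0.663 to 0.778) against 0.749 (0.700 to 0.802) for the 7 MamGyp LTR rows. Medians by class were 0.750 for 35 ERVL rows, 0.762 for 6 ERV1 rows, 0.730 for 11 Gypsy rows and 0.774 for 17 rows given no class here. Summed reads gave 0.777 (0.766 to 0.789) for ERVL, 0.768 (0.740 to 0.796) for ERV1 and 0.753 (0.716 to 0.792) for Gypsy. The Gypsy rows here include MamGyp-int, and the ERVL rows include LTR52-int. The 3 summed intervals overlap, and differences between classes were not tested. Of the rows with no class, LTR31 had the highest ratio, 0.881 (0.780 to 0.996), while LTR55 and LTR90B, at 0.662 (0.584 to 0.749) and 0.648 (0.550 to 0.763), were among the lowest 5 of the set.

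The LTR rows varied among themselves by about as much as counting error. The SD of their log2 ratios was 0.11 over the 67 LTR rows with at least 100 input reads, and the root mean square of their counting errors was 0.10. With MamGyp-int and LTR52-int included the SD was 0.14 over 69 rows, against a counting error of 0.11. The 14 rows with 1000 or more input reads had an SD of 0.090 against a counting error of 0.052, so some spread beyond counting remained among the deepest rows. The differences between their lanes had an SD of 0.13, against 0.10 from counting error. How much of the spread is a stable difference between rows was not tested. Across all 704 repeats the SD was 0.34 against a counting error of 0.083.

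**Figure D4:**
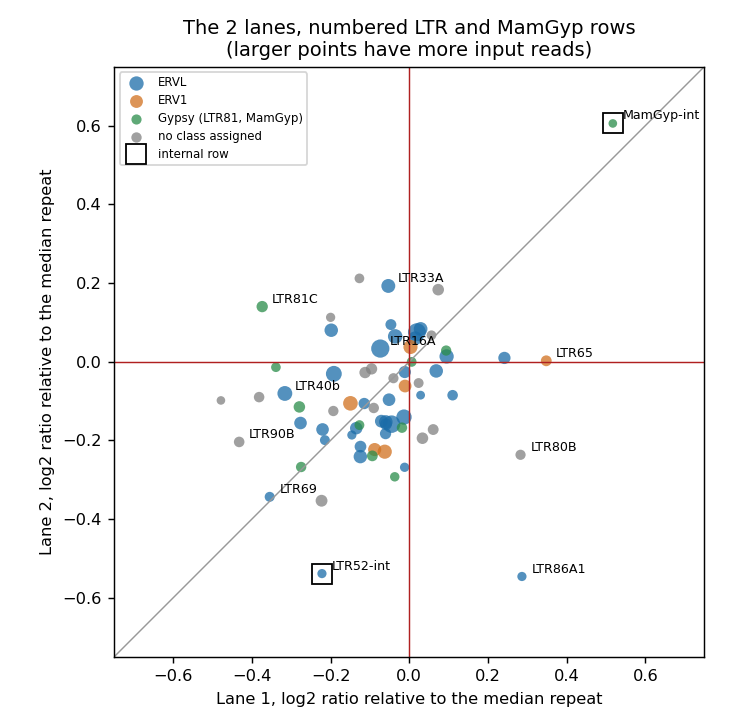
Log2 ratio relative to the median repeat of that lane, lane 2 against lane 1, for the 69 rows. MamGyp-int is high and LTR52-int and LTR69 are low in both lanes, whereas LTR86A1, LTR80B and LTR81C change sides.

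The 2 lanes gave the same picture for the set and only a loose one for single rows. The median of the 69 rows relative to the median repeat was -0.060 in lane 1 and -0.098 in lane 2. In both lanes 41 rows lay lower and 11 rows lay higher than the median repeat, against 38.1% of all repeats for each direction. Of the 69 rows 17 changed sides, against 168 of all 704 repeats. The lanes of a row differed by a median of 0.11 on the log2 scale. The differences had an SD of 0.21, against 0.22 from counting error. Across the 69 rows Pearson's r between the lanes was 0.284 and Spearman's rho 0.269, a description across rows of the same libraries. Without the internal rows they were 0.0724 and 0.216 over the 67 LTR rows. Across all 704 repeats, which are deeper and spread more widely, they were 0.886 and 0.667. Differences of more than 2 counting errors were found for 6 of 69 rows, 8.70%, against 5.40% of all repeats. The 6 were LTR16B2, LTR33A, LTR40b, LTR80B, LTR81C and LTR86A1, of which LTR86A1 had the largest, with log2 ratios of 0.29 in lane 1 and -0.55 in lane 2 relative to the median repeat.

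Set beside other old repeats, the numbered LTR and MamGyp rows were closest to the MLT1 rows, which are old elements of the mammalian apparent LTR retrotransposons, 4 internal rows included. The summed ratio was 0.772 (0.763 to 0.782) for the 87 rows and 0.781 (0.776 to 0.785) for the 32 MLT1 rows, so the intervals overlap. The MST prefix, meant for the same comparison, matched 0 rows. It was higher for the RMER rows, old rodent LTR elements, at 0.807 (0.804 to 0.810). It was higher again for the MIR, L2 and L3 rows, old elements without LTRs, at 0.835 (0.830 to 0.840). By the median, relative to the median repeat, the 69 rows lay at a log2 ratio of -0.098, MLT1 at -0.053, RMER at 0.020 and MIR, L2 and L3 at 0.060. An interval above the median repeat was found for 1 of 69 numbered LTR and MamGyp rows, 1 of 32 MLT1 rows, 16 of 39 RMER rows and 4 of 6 MIR, L2 and L3 rows. All of these lists are deeper than the 69 rows, which have a median of 438 input reads a row. The medians are 3035 for MLT1, 12925 for RMER and 33464.5 for MIR, L2 and L3. With 1 sample in each group no test of these differences between sets was possible.

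**Figure D5:**
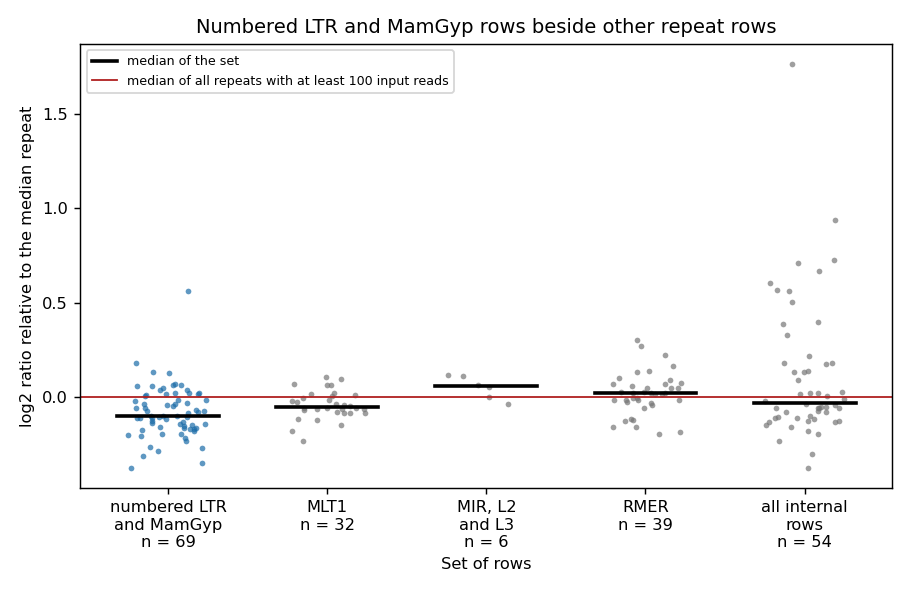
Log2 ratio relative to the median repeat of every row with at least 100 input reads, for the numbered LTR and MamGyp rows, for 3 other sets of old repeats and for all internal rows of the table. The bars mark medians of -0.098, -0.053, 0.060, 0.020 and -0.029 from left to right, and the upper tail of the internal rows reaches 1.76.

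The remaining 18 rows had fewer than 100 input reads each, with a median of 12.5, and 470 ChIP against 453 input reads in all. Their summed ratio of 0.751 (0.659 to 0.856) was close to that of the deeper rows. On either side of the minimum, LTR88a had 101 ChIP and 109 input reads, for a ratio of 0.671 (0.507 to 0.887), while LTR86B2 had 81 ChIP and 86 input reads, for a ratio of 0.682 (0.497 to 0.934). LTR86B1 had 99 ChIP reads against 74 input reads, for a ratio of 0.968 (0.709 to 1.33), with 0.756 in lane 1 and 1.22 in lane 2. LTR44, named after its values were seen, was the only row of the 18 with an interval below the median repeat, with 2 ChIP reads against 12 input reads, for a ratio of 0.121 (0.0131 to 0.542). No interval among the 18 lay above it.

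Each deposited table also gives the authors' log2 ratio with 2 bounds, and a conservative value, which is the bound nearer 0, or 0 where the bounds enclose it. The authors' deposited table put the conservative value below 0 for 36 of the 69 rows in lane 1 and for 36 in lane 2, against 51.7% and 50.7% of all 704 repeats. It was above 0 for 0 of the 69 in lane 1 and for 1 in lane 2, against 15.5% and 15.2%. In the authors' deposited table that 1 row was MamGyp-int, with a log2 ratio of 0.37 in lane 1 and 0.46 in lane 2 and a conservative value of 0 in lane 1 and 0.059 in lane 2. Without a read minimum the authors' deposited table adds LTR39 in lane 1, with a conservative value of 1.63, but its value in lane 2 was 0, and the row held 15 ChIP and 8 input reads over both lanes.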

How the data were processed

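Per the submitters' processing notes, Bowtie 1.0.0 and the genome build mm9 were used. The deposited tables, 1 for each of 2 lanes, hold raw read counts per repeat row for ChIP and input, and the authors' log2 ratio with its bounds. How reads were assigned to rows, how reads matching several rows or duplicates were treated, and what the deposited scale rests on are not given in the sources used here. Rows are repeat types, so no coordinates were used. Lanes were summed and counted as 1 sample. They held 6204712 and 6030765 ChIP reads and 4467116 and 4389635 input reads. From the counts, ratios of shares of table reads and exact conditional (Clopper-Pearson) 95% intervals were computed with Python 3.11.15 and SciPy 1.17.1, and checked on simulated counts. Reads carry no molecular identifiers, so intervals cover counting error only. With 1 sample in each group no test between conditions was possible. Rows, lists and classes, the last from the usual naming of these repeats, were chosen with earlier results of these data known. Rows named were the 10 with most input reads, the 5 highest and 5 lowest ratios, internal rows with the LTR rows of their family, all MamGyp rows, and the 2 rows on each side of 100 input reads, with a few others marked as chosen after their values were seen or as ends of a range. Alternatives were single lanes, other scales, other read minimums, 1 read added to both counts and other sets of rows.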

Additional observations from a re-analysis of the deposited data

How the results depend on the processing

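Depth limited single rows, and the scale between ChIP and input moved every level, since it adds 1 constant to all log2 ratios. The constant was 0.31 with the median repeat set to 1, 0.17 on the scale recovered from the deposited values, 0.20 without the 5 repeats with most ChIP reads, an alternative chosen after seeing the data, and -0.069 without the 5 with most input reads. The order of rows and the position relative to the median repeat do not depend on it. No paired analysis was possible because each group has 1 sample.

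With table totals the log2 ratio was -0.41 for the median of the 69 rows and -0.37 for the summed rows, and medians were -0.42 for ERVL, -0.39 for ERV1, -0.45 for Gypsy, -0.37 for MLT1, -0.29 for RMER and -0.25 for MIR, L2 and L3. With the median repeat set to 1 these became -0.098, -0.060, -0.10, -0.080, -0.14, -0.053, 0.020 and 0.060 in the same order, so the last 2 reversed. Of the named rows, 8 reversed there: LTR31 at 0.13, LTR33 at 0.050, LTR33A at 0.070, LTR41 at 0.057, LTR41B at 0.13, LTR50 at 0.016, MamGypLTR1b at 0.063 and MamGypLTR1d at 0.0050. On the deposited scale the values were -0.24 for the median of the rows, -0.20 for the summed rows, -0.25 for ERVL, -0.20 for MLT1, -0.12 for RMER and -0.085 for MIR, L2 and L3. Without the 5 repeats with most ChIP reads they were -0.21, -0.17, -0.21, -0.16, -0.090 and -0.051 in that order, and LTR31 and LTR41B reversed to 0.020 each. Without the 5 with most input reads the median of the rows was -0.48, the summed rows -0.44, ERVL -0.48, Gypsy -0.52, MLT1 -0.43 and RMER -0.36.

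Counts against the median repeat rest on depth. In lane 1 alone 9 of 69 rows had an interval below it, 3 above it, 6 lay more than 0.32 below it on the log2 scale and 2 more than 0.32 above. In lane 2 alone 8 had an interval below and 2 above, and 4 lay more than 0.32 below. With at least 1000 input reads the median of the rows was -0.31, the summed rows -0.35 and ERVL -0.30, 5 rows had an interval below the median repeat, and 0 had one above it, 0 lay more than 0.32 below and 0 more than 0.32 above. Of all 406 repeats of that depth, 0.246% lay more than 0.32 below and 13.1% more than 0.32 above. No internal row of the set has that many reads, so LTR against internal rows of the set could not be computed there. With at least 20 input reads 5 rows lay more than 0.32 below. Shares of all repeats in single lanes and at this minimum are not given here, so those counts show nothing particular to the set. The SD of the log2 ratios of the rows, 0.14 over 69 rows, was 0.18 in lane 1 alone, 0.17 in lane 2 alone, 0.17 with at least 20 input reads and 0.090 with at least 1000. The summed LTR rows minus the summed internal rows was 0.30 on the log2 scale without the MamGyp rows, chosen after seeing the data, against -0.15 with them. The MamGyp LTR rows lay below MamGyp-int by an interval clear of 0 in lane 1, in lane 2 and with 1 read added. The scale does not enter that value, and a minimum of 20 input reads could not change it, since every MamGyp row has more. Where not stated otherwise, the cause was not tested.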
